A study of Apis mellifera with 27 samples.

Results

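The 100 genes described here are the most abundantly counted honey bee genes that carry no name. Each has an identifier made of LOC and a number. They were taken as the 100 such genes with the highest mean CPM (a gene's count over the library total, times 1000000) in the 14 libraries of colony 1. The table held 12319 gene identifiers, of which 11497 were LOC identifiers, so the members are the top of a large class. Colony 1 levels chose them, and those levels are given as a description with no test. All 100 were listed in the RefSeq gene annotation of Amel_HAv3.1, 98 of them as protein-coding, LOC102653599 as a long non-coding RNA and LOC113219383 as a ribosomal RNA. It gave no product or function, so none is given for any member. No transcript length was used, so levels are reads per library and not molecules, and an order among genes is an order of reads.

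The libraries came from honey bee foragers (Apis mellifera) that had been trained to a time of day. Regions of the mushroom bodies rich in small Kenyon cells were cut out by laser capture, and their polyadenylated RNA was sequenced. Bees of 2 colonies, run in separate experiments, were sampled at 06:00, 10:00, 14:00, 18:00 and 22:00 of day 11 and at 02:00 and 06:00 of day 12. The labels give no strain, age or treatment that differs between groups. Each colony had 2 libraries at each time point, except that 1 library of colony 2 at 06:00 of day 11 is not analysed here, which leaves 14 libraries of colony 1 and 13 of colony 2. Colony and experimental run cannot be told apart. The labels do not tie libraries to single bees, and the p-values therefore reflect no more than the spread among these libraries. That spread may be technical, and the p-values are too small if libraries shared a bee.

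Mushroom bodies are paired insect brain structures needed for forming and recalling memories, and Kenyon cells, of which the small ones are a class, are the neurons that make them up. A LOC identifier is the placeholder NCBI gives a gene model that has no published symbol, whether or not its protein is known. Long non-coding RNAs are transcripts without a recognised protein-coding frame, and many are polyadenylated. Ribosomal RNA is mostly not polyadenylated and is largely removed by selection for poly(A).

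Total counts ranged from 8732841 to 12277539 in colony 1 and from 5589770 to 10846551 in colony 2. On the first principal component of all genes 4 libraries of colony 2 stood apart, both of 10:00 at 94.7 and 66.0, 06:00 of day 11 replicate 2 at 77.6 and 14:00 replicate 1 at 45.0, and the next library was at 10.7. Results are given without the first 3 of these, called the 3 libraries below, and, where a count or call moves, also without all 4, a choice made after seeing the data. Summed CPM of the small Kenyon cell markers (Tk, Ecr and E74) ranged from 1295 to 1832 in colony 1 and from 384 to 1971 in colony 2, with the lowest value in that 06:00 library. The 3 matched large Kenyon cell markers also had their lowest summed CPM there, 2386, and their highest, 10233, in colony 2 replicate 2 at 18:00. Markers of other cells were low but present: summed CPM of photoreceptor markers was 42.1 to 176 in colony 1 and 61.0 to 399 in colony 2, of muscle markers 37.6 to 175 and 15.4 to 676, of gland and fat body markers 29.4 to 102 and 22.7 to 54.5, and of the glial marker Eaat-2 39.8 to 169 and 28.7 to 205. In bulk samples such as these, fewer cells of a type and less RNA per cell cannot be told apart.

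The 100 members held a sizeable share of all counts, and that share was narrow in colony 1 and wide in colony 2. In colony 1 it ranged from 17.8% to 19.6% with a median of 18.4% (mean 18.5% ± 0.581, SD, n = 14). In colony 2 it ranged from 14.7% to 22.03% with a median of 19.5% (mean 19.5% ± 2.16, SD, n = 13). The colonies overlapped, and colony 2 held both the lowest and the highest of the 27 libraries. All LOC genes combined held a median of 93.7% of counts in colony 1 and 93.4% in colony 2, so the members made up 19.6% and 20.8% of LOC counts. The 17 genes with a symbol that were as abundant as the lowest member held a median of 3.04% and 3.20%.

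Over time, the share moved little in colony 1. Its 7 time point means ran from 18.1% to 18.9%, a range of 0.835 percentage points, while replicates of the same time point lay a median of 0.895 and at most 1.43 points apart. The means of colony 1 thus spanned less than its largest replicate gap. In colony 2 the time point means ran from 14.7% at 06:00 of day 11, a single library, to 21.9% at 18:00, and replicates lay a median of 1.48 points apart. The lowest libraries of colony 2 were replicate 2 at 06:00 of day 11, with 14.7%, and replicate 2 at 06:00 of day 12, with 16.03%. The highest were those of 18:00, with 22.03% and 21.8%, and replicate 2 at 14:00, with 21.7%. The other library at 06:00 of day 12 held 19.2%, which is 3.17 points above its replicate and the widest gap in colony 2. Replicate 2 at 06:00 of day 12 had a small Kenyon cell marker sum of 990 CPM, the lowest but one of the 27 libraries, and a photoreceptor sum of 399 CPM, the highest, and their part in its low share was not tested. Without the 3 libraries colony 2 still ranged from 16.03% to 22.03% (mean 19.8% ± 1.82, SD, n = 10), and it did so without all 4 (mean 19.9% ± 1.91, SD, n = 9).

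**Figure D1:**
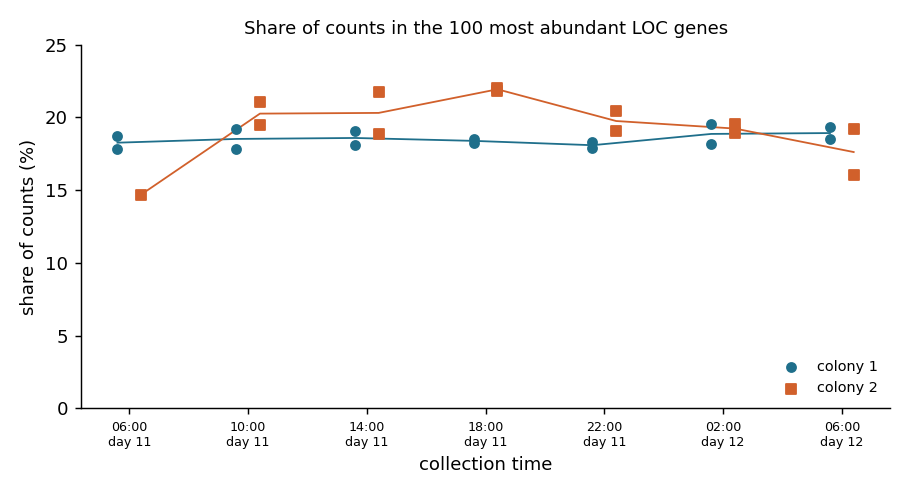
Share of all counts (percent, y axis) held by the 100 members in each library, by time point (x axis) and colony, with 1 point per library and lines through the time point means. The 14 libraries of colony 1 sit between 17.8% and 19.6%, and those of colony 2 spread from 14.7% at 06:00 of day 11 to 22.03% at 18:00.

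The members' counts were concentrated in a few of them. The first member held 9.94% of the members' counts in colony 1, the first 10 held 32.3%, and the first 23 held 50.04%. Mean CPM was above 1000 for 76 members, above 2000 for 23 and above 5000 for 5. The most abundant was the long non-coding RNA LOC102653599, with a mean of 18406 ± 2515 CPM in colony 1 (SD, n = 14). It alone took 1.55% to 2.28% of the counts of a colony 1 library and 1.68% to 3.32% in colony 2. The next member, LOC409077, had 7341 ± 444 CPM in colony 1, and LOC102656354 had 5405 ± 362. LOC408804 followed with 5282 ± 467 CPM and LOC550785 with 5023 ± 267. Neighbours in this order from the third to the fifth lay within 1 SD of each other, whereas LOC102653599 lay above every library's value of LOC409077. The first 10 were completed by LOC412353 (4310 ± 366), LOC551733 (4255 ± 420), LOC725960 (3532 ± 395), LOC409675 (3287 ± 459) and LOC552020 (3029 ± 394).

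The order was largely shared by colony 2, which had no part in choosing the members. Ranked by mean CPM in colony 2, 87 of the 100 were also among its first 100 LOC genes, and 9 of the first 10 among its first 10. LOC102653599 was first there as well, with 25425 ± 5232 CPM (SD, n = 13), and LOC408804 moved to second with 6174 ± 2171. The member that stood lowest in colony 2 was LOC727221, at rank 97 in colony 1 and rank 194 in colony 2. At the lower edge of the set, LOC410216 had 816 ± 79.1 CPM in colony 1, LOC409366 814 ± 71.7 and LOC552417 801 ± 96.2. Just outside it were LOC409456 with 799 ± 73.5 CPM, the long non-coding RNA LOC113218601 with 779.9 ± 147 and LOC726439 with 772 ± 70.2. Their ranks in colony 2 were 134, 98 and 111 inside the edge and 106, 67 and 74 outside it.

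**Figure D2:**
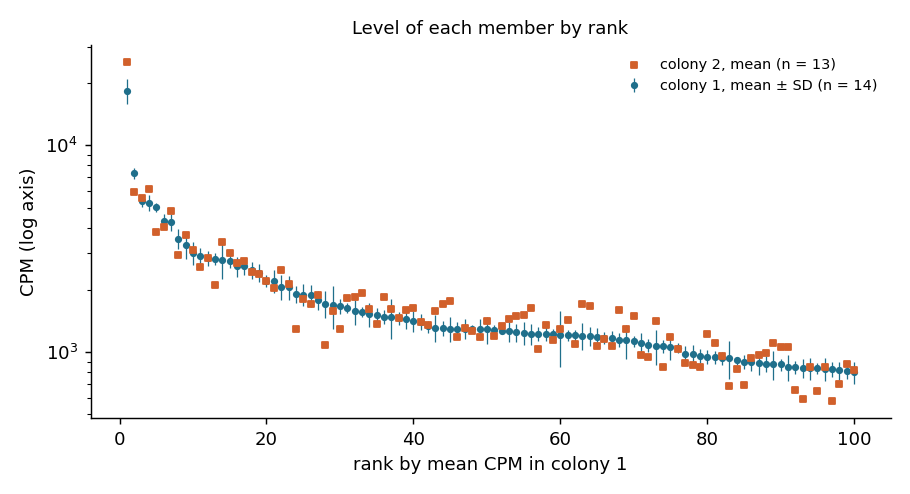
Mean CPM of the 100 members (y axis, log scale) against their rank in colony 1 (x axis). Circles with bars are means ± SD of colony 1, and squares are means of colony 2. LOC102653599 stands alone at the top in both colonies, and the colony 2 points scatter around the colony 1 curve.

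The ribosomal RNA member, LOC113219383, ranked 29th in colony 1. In CPM scaled by TMM, edgeR's trimmed mean normalisation, used for all values per library from here on, it ranged from 1142 to 2372 in colony 1 with a median of 1619, and from 912 to 2669 in colony 2 with a median of 1496. The colonies overlapped along most of this range. Its variation between replicates was the widest of the members in colony 1, with a biological coefficient of variation of 22.03%. All genes that RefSeq lists as ribosomal RNA held 0.135% to 0.283% of counts in colony 1 and 0.120% to 0.288% in colony 2. LOC408695 and LOC408696, at ranks 26 and 11, follow each other in the order of genes in RefSeq, as do LOC725970 and LOC408992, at ranks 57 and 50. Levels of overlapping genes are uncertain, because no source used here gives the strand setting of the counting. Those of members with near-identical copies are uncertain because they depend on how reads with several matches were counted.

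In colony 1 the members were steady over the day. The coefficient of variation over the 7 time point means had a median of 6.80% among the 100 members, from 1.28% to 26.01%, against a median of 11.4% over all 9816 genes kept for testing and 7.39% over the 17 abundant genes with a symbol. The mean at the highest time point was more than 1.5-fold the lowest in 5 of the 100 members, where 39.1% of all genes kept passed that fold. Abundant genes have less counting error, and the median of the 17 genes with a symbol lay close to that of the members. The 5 were LOC552326 (2.30-fold), LOC725131 (1.68-fold), LOC503505 (1.59-fold), LOC409675 (1.53-fold) and LOC100578925 (1.52-fold). Of these, 4 were highest at 10:00 and LOC503505 at 14:00. The biological coefficient of variation between replicates had a median of 10.2% among members and 12.96% over all genes.

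In colony 2 the same members varied far more. Their coefficient of variation over time had a median of 29.3%, from 6.74% to 55.9%, against 30.3% over all genes kept. The highest mean was more than 1.5-fold the lowest in 88 members, against 89.3% of all genes. The colony 2 mean at the first time point rests on a single library. Without the 3 libraries the median was 16.1% against 18.3%, and 53 members passed that fold against 56.6% of all genes. Without all 4 the median was 15.5% against 18.7%, and 51 members passed against 57.4%. Either setting leaves colony 2 without a library at the first 2 time points, so it covers fewer time points than the full set. Dropping time points cannot raise a highest-over-lowest fold, so counts past that fold are not directly comparable with the 88 or with colony 1. Within each setting, members and all genes are compared over the same time points. The steadiest members in colony 2 were LOC409167 (6.74%), LOC551031 (6.81%), LOC412353 (7.37%), LOC552417 (8.12%) and LOC725312 (11.03%). LOC412353, the sixth most abundant member, ranged from 3570.3 to 4702 CPM in colony 1 with a median of 4177, and from 3534 to 4455 in colony 2 with a median of 4242. Its ranges in the colonies nearly coincided. LOC725312 was the steadiest of all members in colony 1, with a coefficient of variation of 1.28% and values between 1170.2 and 1293 CPM.

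The test over the 7 time points asked which members differed between times of day in both colonies together. Of the 100 members, 4 passed edgeR's quasi-likelihood test at a Benjamini-Hochberg adjusted p under 0.05, with 225 of 9816 genes passing, which is 2.29%. At an unadjusted p under 0.05 there were 23 members and 16.8% of all genes. The 4 members were LOC725131, LOC551737, LOC411114 and LOC552326, and each had its highest mean at 10:00. Both colony 2 libraries of 10:00 are among those that stand apart, so each adjusted p is also given without the 3 libraries and without all 4. Colony 2 then has no library at 10:00. Its highest mean without the 3 was at 18:00 for LOC725131, LOC551737 and LOC411114, and at 06:00 of day 12 for LOC552326. Without all 4 the highest colony 2 level of LOC725131, LOC551737 and LOC411114 moved to 14:00, where a single library remains. That library had 1707, 2131 and 1717 CPM, against colony 2 means of 1587, 2052 and 1682 at 18:00.

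LOC725131 had 1757 and 1416 CPM in colony 1 and 1518 and 2252 in colony 2 at 10:00, a mean of 1736 ± 373 (SD, n = 4). At 02:00 it had 992 and 901 CPM in colony 1 and 927 and 1132 in colony 2, a mean of 988 ± 103.2. All 4 libraries of 10:00 lay above all 4 of 02:00, in either colony. The time course had an adjusted p of 0.0129, and 0.00931 in colony 1 alone, 0.00819 in colony 2 alone, 0.00834 without the 3 libraries and 0.00664 without all 4. Leaving out 10:00 colony 1 replicate 1 gave 0.0505 and leaving out 10:00 colony 2 replicate 2 gave 0.0631.

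LOC551737 had 1472 and 1359 CPM in colony 1 and 1818 and 2471 in colony 2 at 10:00, a mean of 1779.9 ± 500 (SD, n = 4). At 06:00 of day 11 it had 1099.9 and 989 CPM in colony 1 and 975 in colony 2, a mean of 1021 ± 68.4 (n = 3). These libraries did not overlap. Both colony 2 libraries lay above both of colony 1 at each time point from 10:00 of day 11 to 02:00 of day 12, and at neither 06:00. Its adjusted p was 0.0184, 0.0144 without the 3 libraries, 0.0127 without all 4 and 0.0515 in colony 1 alone.

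LOC411114 had 1581 and 1429 CPM in colony 1 and 1873 and 2110 in colony 2 at 10:00, a mean of 1748 ± 304 (n = 4). It had 1135, 1094 and 1192 CPM at 06:00 of day 11, all below the libraries of 10:00. The adjusted p was 0.0340, 0.0798 without the 3 libraries and 0.0383 without all 4, and the call was lost in 12 of the 27 fits that left out single libraries (highest adjusted p = 0.115). LOC552326 had 1508 and 1899 CPM in colony 1 and 1688 and 1926 in colony 2 at 10:00, against 976, 935, 942 and 958 at 02:00. The libraries of 02:00 lay close together and below all of 10:00, with means of 953 ± 18.3 and 1755 ± 196. Replicates of LOC552326 at 06:00 of day 11 in colony 1 had 1032 and 1746 CPM, so single time points of this gene were not always tight. Its adjusted p was 0.0381, 0.116 without the 3 libraries and 0.175 without all 4, and 16 of the 27 fits without single libraries lost the call (highest adjusted p = 0.104).

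**Figure D3:**
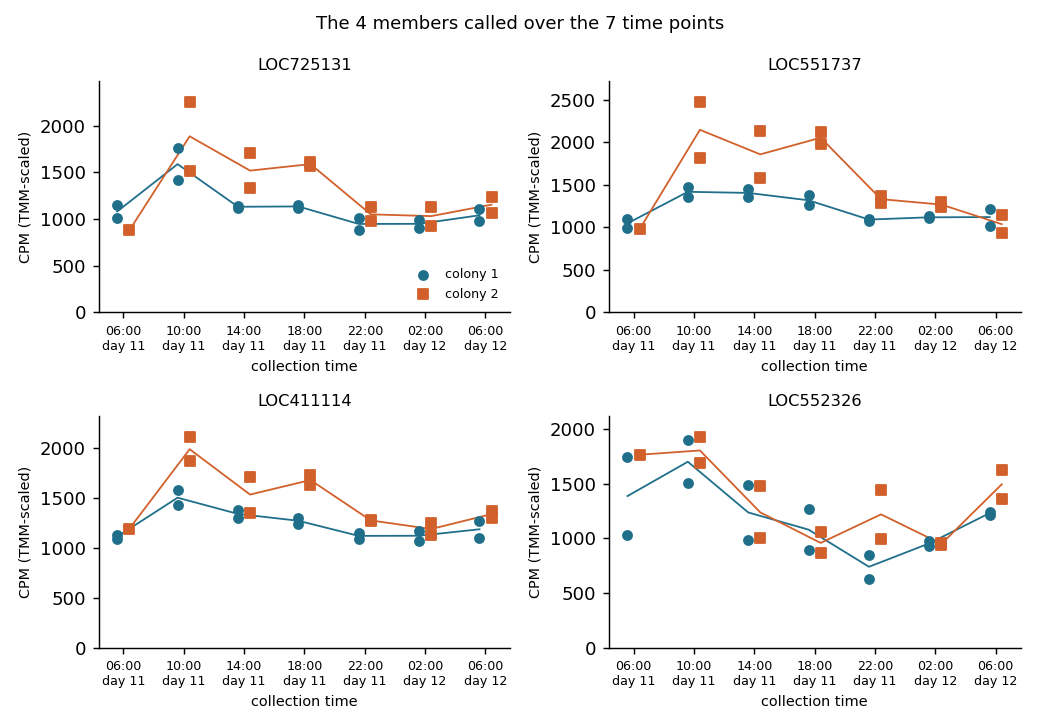
TMM-scaled CPM (y axis) of the 4 members that passed the test over the 7 time points (x axis), with 1 point per library and a line through the means of each colony. The highest mean of each lies at 10:00, where LOC725131 averaged 1736 CPM against 988 at 02:00.

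A cosine with a period of 24 h, fitted with colony as a term, asked for a smooth daily course. It was called in 8 members of the 100, with 4.31% of all genes called. The 4 members above were among the 8, with fitted peaks between 9.70 h and 14.5 h after midnight and peak-to-trough folds between 1.43 and 1.82. LOC552020, the tenth most abundant member, peaked at 16.9 h with a fold of 1.71 (adjusted p = 0.00937). It had 3399 and 3253 CPM in colony 1 and 5045 and 4569 in colony 2 at 18:00, a mean of 4067 ± 879 (n = 4). At 06:00 of day 12 it had 2585 and 2627 CPM in colony 1 and 2298 and 1824 in colony 2, a mean of 2334 ± 369. The libraries of 18:00 lay above those of 06:00 of day 12 in both colonies, and the distance was wider in colony 2. Over the 7 time points its adjusted p was 0.0613, which did not pass, and 0.0189 without all 4 libraries that stand apart.

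LOC409390 peaked at 15.3 h with a fold of 1.57 (adjusted p = 0.0369), and 11 of 37 alternative settings took its call away. The others called were LOC409890 (16.2 h, 1.30-fold, adjusted p = 0.0377) and LOC412714 (18.7 h, 1.47-fold, adjusted p = 0.0473). The cosine of LOC412714 was not called in colony 1 alone, without the 3 libraries or without all 4. Its highest mean was at 14:00 in colony 1 and, without the 3, at 14:00 in colony 2 as well. LOC409890 was high at 18:00, with 1513 and 1671 CPM in colony 1 and 1875 and 1954 in colony 2. All 8 peaks thus fell between 9.70 h and 18.7 h. Within colony 1 the cosine was called in 7 members, with 5.4% of all genes called there, and 6 of the 7 were among the 8. Within colony 2 it was called in 0 members by edgeR, with 1 call among 10198 genes. At an unadjusted p under 0.05 there were 30 members and 1697 genes. Without the 3 libraries it was called in 12 members (8.75% of all genes), and without all 4 also in 12 (6.28%), and either 12 include 7 of the 8.

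The first and last time points were both 06:00, a day apart. By edgeR's quasi-likelihood test 0 of 100 members and 0% of all genes were called between them. At an unadjusted p under 0.05 there were 12 members and 1138 genes, DESeq2 called 0 members and 1 gene, and limma-voom called 0 of either. The smallest adjusted p of a member was 0.369. Leaving out 1 library, 06:00 of day 11 colony 1 replicate 1, gave 8 members, with 3.64% of all genes called in that fit.

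Whether time courses differed between the colonies was tested by the interaction of colony and time point, and the outcome rested on a single library. The interaction of colony and time point was called in 68 of the 100 members, against 22.5% of all genes, and in 11 of the 17 abundant genes with a symbol. Without colony 2 replicate 2 at 06:00 of day 11 it was called in 4 members, against 2.14% of all genes. Those 4 were LOC409326, LOC411832, LOC727221 and LOC726262. The library left out is the only one of colony 2 at that time point, so this fit no longer compares the colonies there. Without the 3 libraries it was called by edgeR in 0 members and 9 of 9992 genes, with 20 members and 1272 genes at an unadjusted p under 0.05. The test within colony 2 alone behaved in the same way, with 68 members called against 21.2% of all genes, 16 (5.53% of all genes) without that library, 4 (1.58%) without the 3 and 8 (2.35%) without all 4. LOC100577517, LOC410353, LOC552020 and LOC408915 were called both without the 3 and without all 4. The fits without these libraries cover fewer time points of colony 2, so their counts do not test the same set of times as the full fit.

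The smallest interaction p-values belonged to LOC726262, LOC727221 and LOC408988. LOC726262 had 2019 and 1513 CPM in colony 1 at 06:00 of day 11 and 199.9 in the colony 2 library. At 10:00 it had 1822 and 1452 CPM in colony 1 against 587 and 611 in colony 2, and at 02:00 1820 and 1623 against 1532 and 1657. The colonies were far apart at the first 2 time points and overlapped at 02:00 (adjusted p of the interaction 4.51e-05, and 0.0349 without colony 2 replicate 2 at 06:00 of day 11). LOC727221 had 961 and 895 CPM in colony 1 at 06:00 of day 11 against 223 in colony 2, and 799 and 796 against 837 and 830 at 02:00 (4.51e-05, and 0.0310 without it). LOC408988 had 1004 and 997 CPM against 198 at 06:00 of day 11, and 1149 and 1032 against 1060.4 and 1245 at 02:00. Only the 06:00 library stood far from the rest in LOC408988, and its interaction p went from 0.000176 to 0.439 without that library.

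That library, colony 2 replicate 2 at 06:00 of day 11, held the lowest of the 27 values for 61 of the 100 members, where it held the lowest for 23.0% of all genes. It held the highest for 18 members, where it did so for 21.9% of all genes. Against the colony 1 mean its members had a median log2 ratio of -0.79, with quartiles of -1.40 and 0.11, while the median over all genes was -0.07. Members were below the colony 1 mean in 72 cases, against 52.1% of all genes, and more than 2-fold below it in 43, against 22.2%. Examples of low values were LOC408804, with 1549 CPM there and 4312 to 6021 in colony 1, and LOC550785, with 1773 there and 4348 to 5510 in colony 1. Examples of high values were LOC413296, with 2948 CPM there and 986 to 1235 in colony 1, and LOC411832, with 2833 there and 995 to 1271 in colony 1. The library's small and large Kenyon cell marker sums were the lowest of the 27 and its Eaat-2 level, 205 CPM, was the highest. Their part in these values was not tested.

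Several other colony 2 libraries lay on the other side, whereas replicate 2 at 06:00 of day 12 also lay below the colony 1 mean. The members' median log2 ratio to the colony 1 mean was 0.30 and 0.29 in the libraries of 18:00, 0.30 in 14:00 replicate 2 and -0.38 in 06:00 of day 12 replicate 2. Summed CPM of the large Kenyon cell markers was 8919 and 10233 in the libraries of 18:00, 8912 in 14:00 replicate 2 and 4243 in 06:00 of day 12 replicate 2, against 5396 to 7872 in colony 1. The sum was also above that range at 10:00, with 8061 and 8989, and in 22:00 replicate 2, with 8186. The members' median log2 ratios there were 0.06, 0.17 and 0.16. The part of these marker levels in the members' ratios was not tested. The 18:00 libraries held the highest of the 27 values for 16 and 17 members, where they did so for 4.52% and 3.65% of all genes. The 10:00 replicate 2 library did for 13 members and 7.92% of all genes. Time point means in colony 2 without the 3 libraries were highest at 18:00 in 64 members, against 20.5% of all genes, and lowest at 06:00 of day 12 in 66, against 20.7%. Without all 4 these counts were 41 (18.2% of all genes) and 72 (21.4%). A further 39 members (23.0% of all genes) were then highest at 14:00, where colony 2 has a single library left. In colony 1 the highest time point was 10:00 for 27 members (21.6% of all genes) and 14:00 for 21 (16.5%). It was 02:00 for 18 (12.0%) and 06:00 of day 12 for 17 (12.2%), and no time point was highest for more than 27 members.

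**Figure D4:**
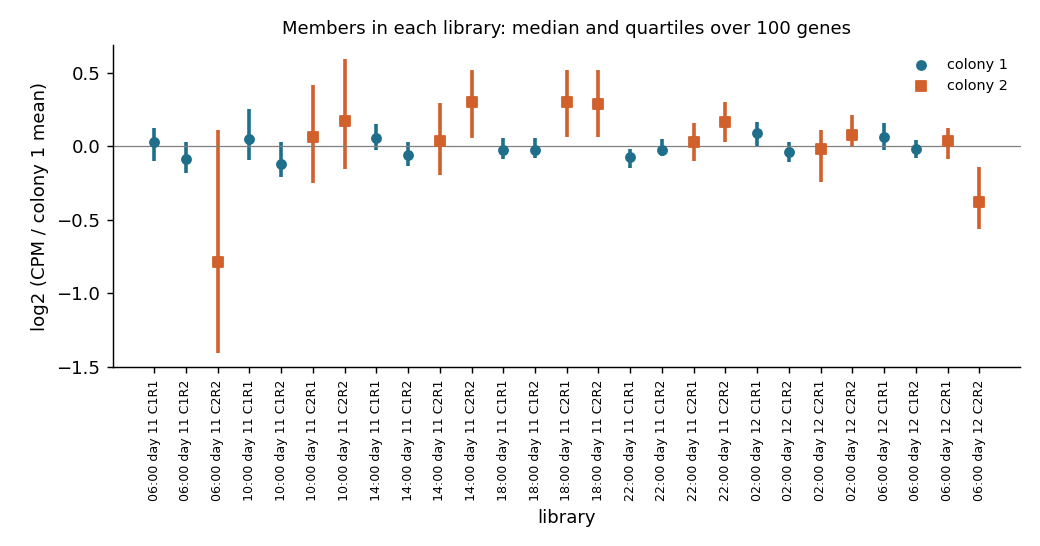
Log2 ratio of the members to their colony 1 mean in each library (y axis), by library in order of time (x axis). Points are medians over the 100 members, bars join the quartiles and the line at 0 marks the colony 1 mean. Colony 2 replicate 2 at 06:00 of day 11 has a median of -0.79, and the colony 2 libraries of 18:00 have medians of 0.30 and 0.29.

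The difference between the colonies is given as log2 of colony 2 over colony 1 from the edgeR fit with time point as a term. Since the colony 1 mean chose the members, it is a description and has no test. The 100 members had a median difference of 0.06, with quartiles of -0.13 and 0.22, against -0.04 over all genes. It was above 0 in 61 members and below 0 in 39, against 45.5% of all genes and 11 of the 17 abundant genes with a symbol above 0. A difference of more than 1.5-fold was seen in 1 member, LOC726262, with 16.4% of all genes past that fold. Without colony 2 replicate 2 at 06:00 of day 11 LOC726262 fell short of it, at -0.56, and LOC408372 passed it, at 0.60. With the 3 libraries left out 0 members passed it, against 12.9% of all genes, and with all 4 left out 1 did, against 12.5%. In 0 members were the libraries of the colonies fully separate, against 0.153% of all genes. Colony 2 was higher at all 7 time points in 7 members (5.39% of all genes) and lower at all 7 in 8 members (7.83% of all genes).

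The member furthest below colony 1 was LOC726262, which ranged from 1284 to 2037 CPM in colony 1 with a median of 1793 and from 199.9 to 1657 in colony 2 with a median of 1245 (log2 difference -0.74, SE 0.183). LOC551859 ranged from 1599.6 to 2121 CPM in colony 1 and from 611 to 1918 in colony 2 (-0.58, SE 0.109). Both overlapped between colonies, with colony 2 reaching far lower. LOC100577769 (-0.54, SE 0.122), LOC727221 (-0.53, SE 0.125) and LOC409634 (-0.42, SE 0.120) followed. All 5 had their lowest value in colony 2 replicate 2 at 06:00 of day 11. Without the 3 libraries the log2 differences were -0.39 for LOC726262, -0.41 for LOC551859, -0.34 for LOC100577769, -0.28 for LOC727221 and -0.21 for LOC409634, and without all 4 they were -0.35, -0.35, -0.29, -0.23 and -0.15.

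On the higher side, LOC411832 ranged from 995 to 1271 CPM in colony 1 and from 1220.3 to 2833 in colony 2 (log2 difference 0.53, SE 0.101). LOC102653599, the most abundant member, ranged from 15100.2 to 22901 CPM in colony 1 with a median of 16985 and from 15333 to 35557 in colony 2 with a median of 24588.5 (0.50, SE 0.125). It was higher in colony 2 at 6 of the 7 time points, with colony 2 values of 31124 and 35557 CPM at 10:00 and 30105 and 35299 at 18:00, all above every library of colony 1. At 06:00 of day 12 the order turned, with 22901 and 20109 CPM in colony 1 and 21744 and 15333 in colony 2. LOC408372 (0.47, SE 0.148), LOC413296 (0.45, SE 0.108) and LOC408308 (0.44, SE 0.0878) completed the 5. LOC411832, LOC413296 and LOC408308 had their highest value in the 06:00 library that stands apart, whereas LOC408372 had its lowest there, 599 CPM. Without the 3 libraries the log2 differences were 0.31 for LOC411832, 0.22 for LOC413296 and 0.27 for LOC408308, and without all 4 they were 0.28, 0.17 and 0.27. For LOC102653599 they were 0.46 and 0.48, and for LOC408372 0.58 and 0.60. When the members were chosen by colony 2 instead, the median difference was 0.15 with 71 above 0. When they were chosen by all 27 libraries it was 0.09 with 68 above 0, and over all genes 45.5% lay above 0.

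**Figure D5:**
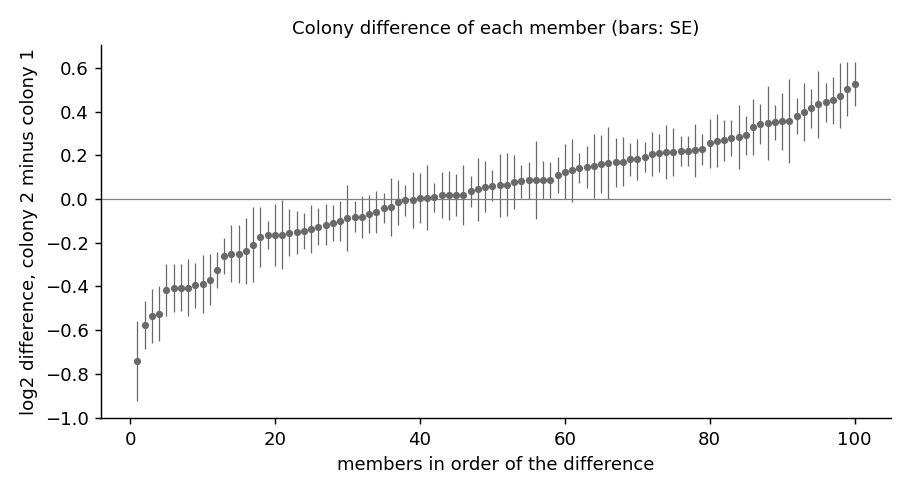
Log2 difference of colony 2 minus colony 1 (y axis) for the 100 members in order of that difference (x axis), with bars for the SE and a line at 0. The members run from -0.74 in LOC726262 to 0.53 in LOC411832, with 61 above 0, against 45.5% of all genes.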

How the data were processed

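Per the labels' protocols, poly(A)-selected RNA of laser-captured cells went into strand-specific libraries. The authors' deposited values were raw counts of reads per gene, whole numbers with a different total in each library. The submitters' processing notes list DESeq2, featureCounts, STAR, FastQC and Trimmomatic without versions or roles. For genome build, annotation and strand setting, nothing was stated (not given in the sources used here). No coordinates are printed, and how reads with several matches were counted could change the level of any member with a close copy.

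Of 12319 identifiers, 12166 equalled a symbol of the RefSeq table of Amel_HAv3.1, used for gene type and gene order alone. The analysis used edgeR 4.0.16 in R 4.3.3. The filter filterByExpr, with time point as group, left 9816 genes and all 100 members, and TMM set the scaling. All 27 libraries entered glmQLFit (robust) and glmQLFTest with colony and time point as terms. A cosine and sine of 24 h replaced time point for the cosine, the interaction let time point differ between colonies, and colony 2 was also fitted alone over 10198 genes. The p-values were adjusted by Benjamini-Hochberg over all genes tested and called under 0.05. The SE of a log2 difference is its size over the square root of F. Ratios per library added 0.5 CPM. Coefficients of variation were taken over time point means.

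The members and lists were chosen with earlier results of these data known, as were the 3 libraries left out in an alternative. The text names the 10 most abundant members, those called over time (up to 12), by cosine (up to 6) or between the dawns (up to 3), the 3 with the smallest interaction p, the 5 largest colony differences each way, the 5 steadiest in colony 2 and the 3 members on each side of the lower edge. LOC113219383, LOC409890, LOC412714, the neighbouring pairs, those widest over time in colony 1 and those called without some libraries were named after their values were seen.

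No replicate pair agreed within sampling noise (chi-square over its degrees of freedom 11.1 to 44.3, on genes of 20 counts or more), and each library entered as 1 sample. Each library's share of counts rests on at least 5589770 counts, so its 95% Wilson interval is far narrower than the spread between libraries and covers counting error only. In counts simulated from these libraries for the test over the 7 time points (9399 genes), a 2-fold rise at 10:00 was recovered in 40% of 25 members and a 1.5-fold rise in 8%. Every simulated gene had its colony's common biological coefficient of variation, as a fraction 0.179 in colony 1 and 0.375 in colony 2. The members' own medians were lower, 10.2% and 16.1%, so these recoveries may be too low for them. Alternatives were DESeq2 1.42.0, limma-voom 3.58.1, other size factors, no filter, a replicate block, each colony alone, summed libraries, without the 3 libraries, without the 4 that stand apart (chosen after seeing the data), other choices of members and each library left out in turn. Replicate numbers do not pair libraries: same-numbered deviations correlated at -0.07 to 0.24 in colony 1 and -0.17 to 0.16 in colony 2, and each was over 0.1 in 5 of 21 and 1 of 15 pairs of time points.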

Additional observations from a re-analysis of the deposited data

Results flagged for a closer look

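The time course differed between the colonies in 68 members, against 22.5% of all genes, by edgeR's interaction test with Benjamini-Hochberg adjustment. The smallest adjusted p-values were 4.51e-05 for LOC726262, 4.51e-05 for LOC727221 and 0.000176 for LOC408988, and each of these 3 was lowest in colony 2 replicate 2 at 06:00 of day 11. LOC552020, which followed a cosine over both colonies, had an interaction adjusted p of 0.00304, with 1276 CPM in that library against 2743 and 2610 in colony 1. Without that library 4 members were called, against 2.14% of all genes. Over 42 groups of 4 libraries of a time point, for the members' share and the members named over time or by cosine, 0 held a library far from the other 3 by Dixon's criterion, which chance meets in about 1 group of 20. The time point 06:00 of day 11 has 3 libraries and was not examined in this way.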

How the results depend on the processing

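The count of members called over time, 4, was 19 with DESeq2 (9.75% of all genes), 2 with the replicate block (1.46%), 2 in colony 1 alone (3.82%), 68 in colony 2 alone (21.2%) and, by edgeR, 0 after replicate libraries were summed (1 at an unadjusted p under 0.05). It ranged from 1 to 11 when single libraries were left out. It was 11 (5.65% of all genes) without replicate 1 of colony 1 at 06:00 of day 11 and 10 (5.21%) without replicate 2 of colony 2 then. It was 1 (1.58% and 1.07%) without 10:00 colony 1 replicate 1 or colony 2 replicate 2. It was 2 without replicate 2 of colony 1 at 06:00 of day 11, 10:00 colony 2 replicate 1, 14:00 colony 1 replicate 2, 18:00 colony 2 replicate 1, either colony 1 library of 22:00 or either colony 2 library of 02:00 (1.12% to 1.56%). The cosine count, 8, was 16 with DESeq2 (10.5%) and, by edgeR, 0 in colony 2 alone (30 unadjusted) and 0 with summed libraries (7 unadjusted). Leaving out single libraries gave 4 to 22, with 22 (10.6%) without replicate 2 of colony 2 at 06:00 of day 11, 4 (1.82%) without 02:00 colony 2 replicate 1, and 5 (2.11% to 3.25%) without replicate 2 of colony 1 at 06:00 of day 11, 10:00 colony 1 replicate 2, 14:00 colony 1 replicate 1 or 18:00 colony 2 replicate 2. Between the dawns it was 0 to 8, with 0% to 3.64% of all genes. For the interaction, leaving out single libraries gave 4 (2.14% of all genes) to 75 (25.1%). Leaving out the 3 libraries gave 0 (0.0901%), and leaving out all 4 that stand apart gave 0 (0.472%). For colony 2 alone these were 16 (5.53%) to 76 (23.4%), 4 (1.58%) and 8 (2.35%). The replicate block gave 6 for the cosine (3.34% of all genes), 0 between the dawns (0%), 68 for the interaction (21.6%) and 61 in colony 2 (18.1%). It left the median colony difference at 0.06. That median kept its direction in every alternative run, from 0.0056 to 0.15. The members' share in colony 1 was 19.6% of LOC counts, and the median share without single libraries was 18.3% to 18.5% in colony 1 and 19.3% to 19.5% in colony 2. The colony differences of the 5 members named on each side also kept their sign. Counts of members called did not keep their place against all genes. Over time, 4 members went with 2.29% of all genes in the main fit, and 2 with 3.82% in colony 1 alone. The causes were not tested. With 1 or 2 libraries per colony and time point, changes of 1.5-fold were rarely recovered in simulated counts. Those counts varied more between replicates than the members do, so they do not measure what the test can recover among members. Members not called may still differ over time.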
